A study of Homo sapiens with 4 samples.

Results

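The RAS, RAF, MEK and ERK genes are the kinase cascade that encorafenib, an inhibitor of mutant BRAF, acts on. Their members here were chosen by gene symbol: NRAS and HRAS for RAS, BRAF and ARAF for RAF, MAP2K1 and MAP2K2 for MEK, and MAPK3 for ERK. These 7 genes are among 46416 entries of the gene tables, of which 19659 are protein-coding, and other members of these families were not analysed here. A375 is a human malignant melanoma cell line that the labels call BRAF-mutated, a genotype shared by all 4 groups. Resistant cells (A375-R) and sensitive cells (A375-S) were each either left untreated or exposed to 10 nM encorafenib for 48 h, and every one of these 4 groups is 1 library. The sources used here do not say how the resistant line was derived. The RNA came from cultured cells of each line, grown in high-glucose DMEM with serum, and the library kit was made for small RNA. Values in the order "the 4 libraries" run from untreated resistant to treated resistant, untreated sensitive and treated sensitive cells.

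RAS proteins are small GTPases that are active while bound to GTP. Active RAS recruits RAF kinases to the membrane, RAF phosphorylates MEK, and MEK phosphorylates ERK, which then acts on substrates in the cytoplasm and nucleus. ERK also raises transcription of genes that damp the cascade, among them dual-specificity phosphatases and Sprouty proteins. In BRAF-mutated melanoma the mutant kinase signals without RAS. Protein phosphorylation and GTP loading were not measured here, so the values below are transcript counts only.

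All 7 genes had few counts. The gene tables held between 20507667 and 33664470 counts each, but protein-coding genes took only 326919, 307026, 435351 and 215894 counts in the 4 libraries. The 7 genes together had 106, 95, 115 and 70 counts, or 324.2, 309, 264 and 324.2 CPM, counts scaled to 1000000 protein-coding counts. A count of 0 allows up to 3 counts, which stands at 9.18, 9.77, 6.89 and 13.9 CPM. Of the 7 genes, 6 reached 10 counts in at least 1 library, as did 7916 protein-coding genes, and MAPK3 did not. By raw count, MAP2K2 stood above 84.1%, 80.3%, 58.2% and 73.8% of these 7916 genes in the 4 libraries. MAPK3 stood above 3.15%, 16.2%, 2.79% and 23.9% of them. The 8 melanocyte and melanoma markers summed to 163, 426, 241 and 513 counts. The melanocyte factor SOX10 had 94, 86, 157 and 73 of these and the pigment enzyme gene DCT had 1, 145, 0 and 332, while the pigment genes MLANA and TYR were at 0 in all 4 libraries and PMEL and TYRP1 had at most 1 count. Markers of immune cells summed to 35, 38, 7 and 17 counts, almost all CD68 and LYZ, with the pan-leukocyte gene PTPRC at 0, 1, 0 and 0. Fibroblast markers summed to 3, 4, 16 and 8, and epithelial markers to at most 1. The part of any of these in the values below was not tested.

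Ratios between libraries are log2 ratios of counts scaled with TMM factors, and each has an exact 95% counting interval in parentheses. Averages and differences of ratios have approximate (delta-method) intervals instead. With 1 library per group there is no replicate check and no test of the conditions was run, so an interval that excludes 0 shows only that 2 libraries differ by more than counting error. The reads carry no molecular identifiers, so PCR copies are counted too and all intervals cover counting error only. A lower share of the counts and less RNA per cell cannot be told apart in these data.

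Across the whole cascade, 1 gene stood outside counting error in 1 comparison. MAP2K2, which encodes the kinase MEK2, was 2.24-fold (1.38 to 3.81) higher in untreated resistant than in untreated sensitive cells. None of the other 27 ratios excluded 0, and none of the 28 had a bound beyond 2-fold. In untreated cells 1 of 7 genes was above 0 and 0 were below, beside 10.2% of protein-coding genes above and 9.65% below, so the count of members is near the background. The bound was beyond 2-fold for 1.01% of protein-coding genes upward and 0.808% downward. With encorafenib, 0 of 7 genes differed between the lines, beside 8.11% above and 6.53% below among protein-coding genes, and 0.682% and 0.48% beyond 2-fold. In sensitive cells given encorafenib, 0 of 7 differed from untreated, beside 10.6% above and 13.8% below, and 2.15% and 2.48% beyond 2-fold. In resistant cells given encorafenib, 0 of 7 differed, beside 8.07% above and 9.32% below, and 1.16% and 1.52% beyond 2-fold. At these counts the intervals were wide, and even ratios above 2-fold could stay within counting error. In sensitive cells given encorafenib, NRAS was 2.09-fold (0.870 to 5.39) and MAPK3 2.21-fold (0.602 to 9.81) of untreated. A ratio that was not called is therefore no sign of equal levels.

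**Figure D1:**
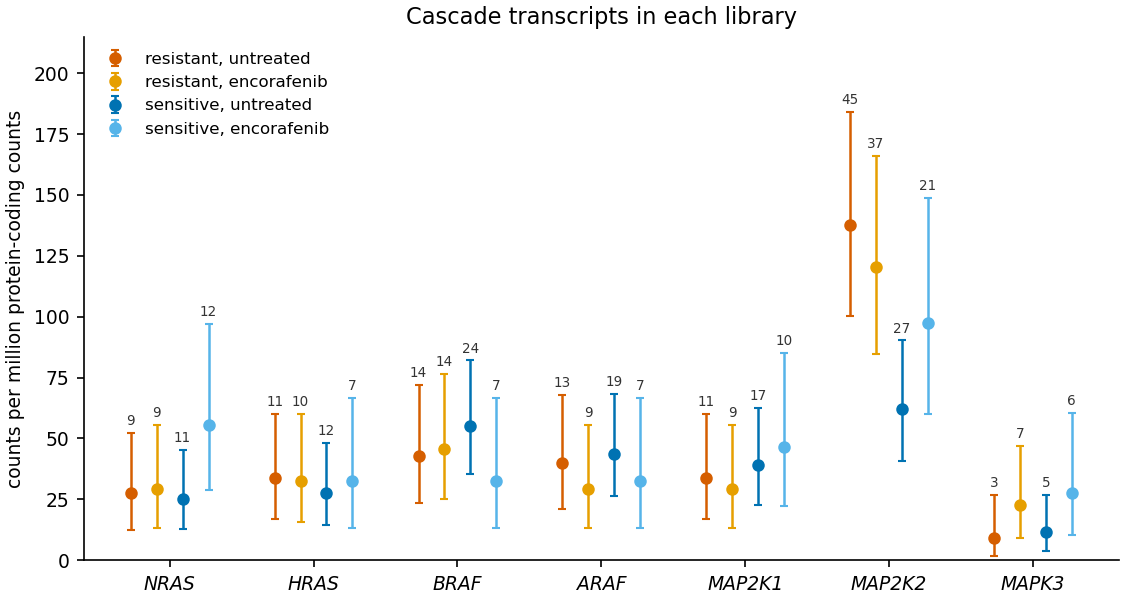
CPM of protein-coding counts for the 7 cascade genes in each of the 4 libraries, with exact 95% Clopper-Pearson intervals as bars and the raw count above each. MAP2K2 had 45 and 37 counts in the resistant and 27 and 21 in the sensitive libraries, and the other genes had 24 counts or fewer.

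The RAS genes did not differ between any pair of libraries beyond counting error. NRAS (Entrez 4893; chromosome 1, 114704469 to 114716894, minus strand, GRCh38) encodes a RAS GTPase that is often mutated in melanoma. It had 9, 9, 11 and 12 counts in the 4 libraries, or 27.5, 29.3, 25.3 and 55.6 CPM. The treated sensitive library had the highest NRAS level, and its interval, 28.7 to 97.1 CPM, overlapped the interval of 12.6 to 45.2 CPM in the untreated sensitive library. The encorafenib ratio of NRAS was 1.06 (-0.20 to 2.43) in sensitive cells and 0.05 (-1.46 to 1.56) in resistant cells. The resistant minus sensitive difference of these responses was -1.02 (-2.75 to 0.72). Between the lines NRAS had ratios of 0.15 (-1.29 to 1.57) untreated and -0.86 (-2.33 to 0.47) with the drug.

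HRAS (Entrez 3265; chromosome 11, 532242 to 537287, minus strand) encodes a second RAS GTPase. It had 11, 10, 12 and 7 counts, or 33.6, 32.6, 27.6 and 32.4 CPM, which was the narrowest fold range among the 7 genes. Its resistant over sensitive ratio was 0.31 (-1.002 to 1.63) untreated. With the drug that ratio was 0.03 (-1.51 to 1.66), and its sign was negative under 2 of the other scalings, TMM over protein-coding genes and DESeq2 size factors. The encorafenib ratio of HRAS was 0.19 (-1.38 to 1.67) in sensitive cells and -0.08 (-1.48 to 1.29) in resistant cells, and both signs flipped when libraries were scaled by total gene-table counts. NRAS and HRAS summed to 20, 19, 23 and 19 counts, with an encorafenib ratio of 0.69 (-0.25 to 1.65) in sensitive cells and -0.02 (-1.01 to 0.96) in resistant cells. NRAS made up 45.0%, 47.4%, 47.8% and 63.2% of these RAS counts. The odds ratio of that share, treated over untreated, was 1.84 (0.461 to 7.79) in sensitive cells.

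The RAF genes also stayed within counting error in all 4 comparisons. BRAF (Entrez 673; chromosome 7, 140719327 to 140924928, minus strand) encodes the kinase that is mutated in these cells and bound by encorafenib. It had 14, 14, 24 and 7 counts, or 42.8, 45.6, 55.1 and 32.4 CPM. Mutant and normal BRAF transcripts are not separated in these tables. The encorafenib ratio of BRAF was -0.77 (-2.26 to 0.46) in sensitive cells and 0.05 (-1.13 to 1.23) in resistant cells, and the resistant minus sensitive difference was 0.82 (-0.76 to 2.40). When libraries were scaled by total gene-table counts instead, the ratio in sensitive cells was -1.33 (-2.84 to -0.12). Between the lines BRAF had ratios of -0.32 (-1.40 to 0.68) untreated and 0.49 (-0.89 to 2.06) with the drug. A gene for a mitochondrial complex I subunit, NDUFB2, overlaps BRAF exons on the opposite strand and had 36, 41, 17 and 13 counts. The sources used here do not say whether counting used strand, so reads of this pair may not be separable.

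ARAF (Entrez 369; chromosome X, 47561100 to 47571920, plus strand) encodes a RAF kinase with low activity of its own. It had 13, 9, 19 and 7 counts, or 39.8, 29.3, 43.6 and 32.4 CPM, with the lower value of each line in the treated library. Its encorafenib ratios were -0.44 (-1.95 to 0.85) in sensitive cells and -0.46 (-1.89 to 0.86) in resistant cells. Its resistant over sensitive ratios were -0.10 (-1.24 to 0.99) untreated and -0.12 (-1.72 to 1.54) with the drug, and both became positive when libraries were scaled by total gene-table counts. BRAF and ARAF summed to 27, 23, 43 and 14 counts, with an encorafenib ratio of -0.63 (-1.62 to 0.26) in sensitive cells and -0.18 (-1.05 to 0.67) in resistant cells. BRAF made up 51.9%, 60.9%, 55.8% and 50% of these RAF counts, and its odds did not differ beyond counting error in any comparison. The synaptic gene SYN1 overlaps ARAF on the opposite strand and had at most 1 count.

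**Figure D2:**
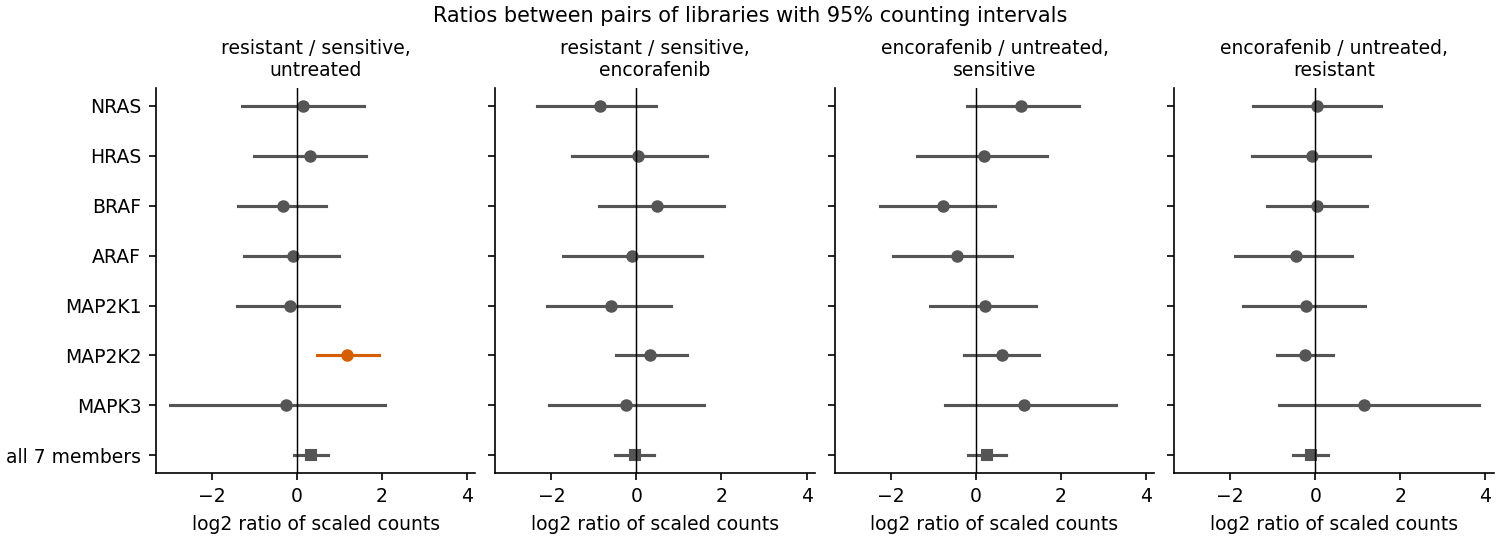
Log2 ratios of scaled counts for each cascade gene and for their sum in the 4 comparisons, with exact 95% counting intervals as lines. The only gene interval clear of 0 is that of MAP2K2 between untreated lines, drawn in orange, at 1.17 (0.46 to 1.93).

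Of the MEK genes, MAP2K2 had the only gene ratio of the cascade with an interval off 0, and MAP2K1 had none. MAP2K2 (Entrez 5605; chromosome 19, 4090321 to 4124129, minus strand) encodes MEK2, a kinase of ERK. It had 45, 37, 27 and 21 counts, or 138, 121, 62.0 and 97.3 CPM. Both resistant libraries were above both sensitive libraries, and the untreated sensitive library was the lowest. The untreated ratio was 1.17 (0.46 to 1.93), and it ranged from 1.12 to 1.27 over the other scalings and the larger prior count. With the drug the ratio was 0.33 (-0.48 to 1.18), and it was 1.11 (0.32 to 1.98) when libraries were scaled by total gene-table counts. The mean of both line ratios, computed after the values were seen, was 0.75 (0.23 to 1.26), or 1.68-fold (1.18 to 2.39). Encorafenib ratios of MAP2K2 were 0.61 (-0.28 to 1.495) in sensitive cells and -0.23 (-0.90 to 0.43) in resistant cells, and their difference, resistant minus sensitive, was -0.84 (-1.86 to 0.19).

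MAP2K1 (Entrez 5604; chromosome 15, 66386817 to 66492312, plus strand) encodes MEK1, the close relative of MEK2. It had 11, 9, 17 and 10 counts, or 33.6, 29.3, 39.0 and 46.3 CPM, and in each drug state the resistant library was the lower one. Its resistant over sensitive ratios were -0.18 (-1.42 to 1.00) untreated and -0.61 (-2.11 to 0.82) with the drug, the latter turning to 0.16 when libraries were scaled by total gene-table counts. Its encorafenib ratios were 0.21 (-1.07 to 1.42) in sensitive cells, which became -0.35 under that scaling, and -0.23 (-1.69 to 1.17) in resistant cells. SNAPC5, a gene for a small nuclear RNA transcription factor subunit, overlaps MAP2K1 on the opposite strand with 6, 7, 8 and 3 counts. The sum of both MEK genes was 56, 46, 44 and 31 counts. Its line ratio was 0.79 (0.20 to 1.40) untreated and 0.08 (-0.60 to 0.79) with the drug. That sum followed MAP2K2, which held most of its counts in every library.

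The makeup of the MEK counts needs no scaling between libraries. It rests on the same counts as the ratios above, so it is no separate result. MAP2K1 made up 19.6% (10.2 to 32.4), 19.6% (9.36 to 33.9), 38.6% (24.4 to 54.5) and 32.3% (16.7 to 51.4) of MEK counts in the 4 libraries, with Clopper-Pearson intervals. The share was lower in both resistant libraries than in both sensitive ones, with overlapping intervals. The odds ratio, resistant over sensitive, was 0.392 (0.142 to 1.04) untreated and 0.515 (0.157 to 1.66) with the drug. Both of these exact intervals include 1. Averaged over both drug states, a summary chosen after the values were seen, that odds ratio was 0.454, with an approximate interval of 0.231 to 0.893. It came from 20 of 102 MEK counts in resistant and 27 of 75 in sensitive cells. MAP2K2 as a share of all 7 genes, likewise chosen afterwards, was 42.5% (32.9 to 52.4), 38.9% (29.1 to 49.5), 23.5% (16.1 to 32.3) and 30% (19.6 to 42.1). Its odds ratio between lines was 2.39 (1.30 to 4.48) untreated and 1.48 (0.736 to 3.04) with the drug.

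**Figure D3:**
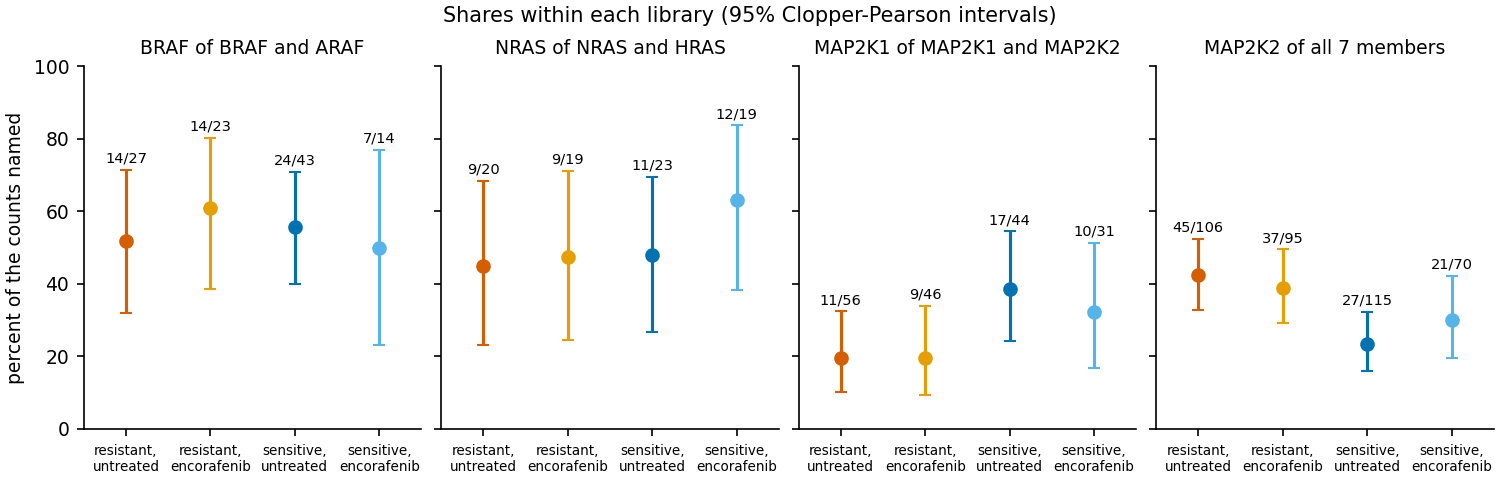
Shares within each library, in percent with 95% Clopper-Pearson intervals: BRAF of RAF counts, NRAS of RAS counts, MAP2K1 of MEK counts and MAP2K2 of the counts of all 7 genes. MAP2K1 took 19.6% of MEK counts in both resistant libraries against 38.6% and 32.3% in the sensitive ones.

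MAPK3 (Entrez 5595; chromosome 16, 30114105 to 30123506, minus strand) encodes ERK1, the last kinase of the cascade. It had 3, 7, 5 and 6 counts, or 9.18, 22.8, 11.5 and 27.8 CPM. Both treated libraries were above both untreated ones, and all 4 intervals overlapped. Its encorafenib ratio was 1.14 (-0.73 to 3.29) in sensitive cells and 1.14 (-0.86 to 3.85) in resistant cells, and the mean of both, computed afterwards, was 1.14 (-0.09 to 2.37). Its resistant over sensitive ratios were -0.26 (-2.98 to 2.07) untreated and -0.24 (-2.06 to 1.59) with the drug, the latter turning to 0.50 when libraries were scaled by total gene-table counts.

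As a group the 7 genes lay near the middle of the protein-coding genes. Their median ratio between untreated lines was -0.10, beside -0.03 over the 7916 genes tested, and with the drug -0.12 beside 0.07. Their median encorafenib ratio was 0.21 beside -0.08 in sensitive cells and -0.08 beside -0.01 in resistant cells. The sum of all 7 genes had encorafenib ratios of 0.26 (-0.19 to 0.71) in sensitive cells and -0.11 (-0.52 to 0.30) in resistant cells. Between lines it had ratios of 0.33 (-0.07 to 0.72) untreated and -0.04 (-0.51 to 0.42) with the drug. The untreated sum was 0.43 (0.04 to 0.82) when libraries were scaled by total gene-table counts.

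Levels of different genes were compared as CPM per kilobase of the median annotated transcript. The library kit was made for small RNA, and whether its counts grow with transcript length was not tested. MAP2K2 was highest in all 4 libraries, at 158, 138, 71.1 and 112 CPM per kilobase. It exceeded the next gene 3.805-fold (2.02 to 7.69), 3.79-fold (1.85 to 8.55) and 3.08-fold (1.26 to 8.56) in all but the untreated sensitive library, where the fold over ARAF was 1.56 (0.837 to 2.97). HRAS and ARAF came next in each library, at 30.6 to 45.5 CPM per kilobase. MAP2K1 stood at 20.5 to 32.3, BRAF at 13.98 to 23.8 and MAPK3 at 9.20 to 27.9, in an order that varied between libraries. NRAS was lowest, at 5.68 to 12.5 CPM per kilobase, with a single annotated transcript of 4449 bases. Neighbours below the top did not differ beyond counting error, except BRAF over NRAS in treated resistant cells, 2.98-fold (1.203 to 7.81). This order depends on the length used. With the longest transcript of each gene, no fold of MAP2K2 over its neighbour excluded 1, and HRAS ranked first in the untreated sensitive library.

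Genes around the cascade were read from lists, each described by the number of members with an interval above or below 0 and set against the percentages of protein-coding genes given for the same comparison above. Of the 8 tested RAS activators and adaptors, 1 was above 0 in untreated resistant over sensitive cells, 1 was above and 2 below with the drug, and encorafenib ratios were above 0 for 2 in sensitive and 1 in resistant cells. SHC1, an adaptor that links receptors to RAS activation, had 90, 123, 90 and 53 counts and was higher in resistant cells both untreated, 0.44 (0.01 to 0.88), or 0.41 (-0.02 to 0.85) when scaled by protein-coding counts, and with the drug, 0.72 (0.25 to 1.22). RASGRP3, an exchange factor that loads RAS with GTP, had 3, 3, 0 and 20 counts, at least 13.2-fold higher in treated than untreated sensitive cells against a floor of 3 counts. Such a fold takes the other count as exact and is no 95% bound, and the end of the exact interval nearest 0 was 3.28 in log2 for RASGRP3. SOS1, another exchange factor, had 25, 25, 36 and 31 counts and an encorafenib ratio of 0.75 (0.02 to 1.499) in sensitive cells, which was 0.18 (-0.56 to 0.92) when scaled by total gene-table counts. GAB1, a docking protein, had 5, 1, 11 and 11 counts and a ratio of -3.34 (-9.37 to -1.16) between treated lines, where RASGRP3 had -3.00 (-5.62 to -1.47).

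Of 6 tested RAS GTPase-activating proteins, which switch RAS off, 1 was above 0 in resistant over sensitive cells in each drug state, and encorafenib ratios were below 0 for 2 in each line. RASA2 had 36, 7, 46 and 7 counts, low in both treated libraries, with encorafenib ratios of -1.69 (-3.13 to -0.58) in sensitive cells and -2.24 (-3.73 to -1.13) in resistant cells. RASA1 had 34, 9, 22 and 13 counts, with a ratio of -1.81 (-3.11 to -0.78) in resistant cells and 1.06 (0.26 to 1.92) between untreated lines. DAB2IP had 9, 3, 16 and 1 counts, and its ratio in sensitive cells was -2.66 (-8.41 to -0.33). RASAL2 had 28, 39, 21 and 7 counts and was higher in treated resistant than treated sensitive cells, 1.93 (0.82 to 3.40). The list's medians were -0.18 in sensitive and -1.09 in resistant cells given encorafenib, beside -0.08 and -0.01 over all genes tested.

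Of 22 tested RAF regulators and scaffolds, 5 were above and 1 below 0 between untreated lines, and 3 above and 1 below between treated lines. Their encorafenib ratios were above 0 for 3 and below for 2 in sensitive cells, and above for 3 and below for 3 in resistant cells. Scaled by total gene-table counts, the split was 17 above and 0 below between treated lines and 1 above and 11 below in sensitive cells with the drug. HSP90AB1, a chaperone that holds client kinases such as mutant BRAF, had 597, 378, 724 and 179 counts. At such counts an interval can exclude 0 at a small ratio. Between untreated lines this gene had 0.17 (0.01 to 0.33), or 0.13 (-0.02 to 0.29) when scaled by protein-coding counts. HSP90AB1 was lower with encorafenib in both lines, by ratios of -1.03 (-1.28 to -0.80) in sensitive cells and -0.61 (-0.80 to -0.42) in resistant cells. Its relative HSP90AA1 had 473, 383, 490 and 240 counts and ratios of -0.26 (-0.45 to -0.06) with the drug in resistant cells, which was -0.14 (-0.34 to 0.06) when scaled by total gene-table counts, and 0.40 (0.21 to 0.58) between untreated lines. PEBP1, an inhibitor of RAF signalling to MEK, had 65, 104, 69 and 62 counts and ratios of 0.82 (0.31 to 1.34) in sensitive cells and 0.72 (0.27 to 1.197) in resistant cells. The 14-3-3 gene YWHAB, whose product binds phosphorylated RAF, had 189, 231, 184 and 155 counts and ratios of 0.73 (0.42 to 1.05) and 0.34 (0.06 to 0.62). In sensitive cells both ratios rest on the scaling, since the raw counts were lower with the drug. Scaled by total gene-table counts, they were 0.24 (-0.27 to 0.76) for PEBP1 and 0.15 (-0.17 to 0.47) for YWHAB. PEA15, which binds ERK in the cytoplasm, had 62, 71, 36 and 49 counts and was higher in resistant than sensitive cells untreated, 1.22 (0.62 to 1.87). Its encorafenib ratio in sensitive cells was 1.41 (0.78 to 2.09). PPP1CC, a phosphatase catalytic subunit, had 32, 20, 80 and 28 counts and was lower in resistant cells untreated, -0.87 (-1.51 to -0.27), and with the drug, -0.95 (-1.88 to -0.09), the latter becoming -0.17 (-1.07 to 0.71) when scaled by total gene-table counts. CNKSR2, a scaffold of the cascade, had 4, 2, 14 and 1 counts and an encorafenib ratio of -2.47 (-8.23 to -0.11) in sensitive cells. SHOC2, a scaffold that promotes RAF activation, had 21, 33, 29 and 9 counts and was higher in treated resistant than treated sensitive cells, 1.35 (0.29 to 2.64).

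The other upstream and parallel lists had only 6, 9 and 11 genes tested, so single calls in them say little beside the percentages of protein-coding genes given above. Of 6 tested RAS processing and trafficking genes, 1 was above 0 between untreated lines and 1 in sensitive cells given encorafenib. Between treated lines none was off 0, but 2 were below with TMM over protein-coding genes or DESeq2 size factors. ZDHHC9, a subunit of the enzyme that palmitoylates RAS, had 21, 18, 11 and 11 counts and an untreated line ratio of 1.33 (0.26 to 2.58). LZTR1, which targets RAS proteins for ubiquitination, had 5, 6, 2 and 12 counts and an encorafenib ratio of 3.19 (1.40 to 6.77) in sensitive cells. Of 9 other small GTPases, 1 was below 0 between untreated lines and none stood apart in the other 3 comparisons. That gene was RAP2A, with 21, 16, 53 and 19 counts and a ratio of -0.88 (-1.69 to -0.14). Scaled by total gene-table counts, 3 of these GTPases were above 0 between treated lines and 3 below in sensitive cells with the drug. With DESeq2 size factors, 1 was below in resistant cells with the drug. Of 11 genes of other MAP kinase arms, 1 was below 0 between untreated lines, MAP3K1 with 3, 6, 15 and 8 counts and a ratio of -1.74 (-4.31 to -0.05), whose interval reached 0.05 when scaled by total gene-table counts, and none in the other 3 comparisons.

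At the lower end of the pathway, most ERK transcriptional outputs were lower with encorafenib in both lines. Of 17 outputs, 12 were below 0 in sensitive and 11 in resistant cells given the drug, and 0 were above in either. Their median encorafenib ratio was -1.88 in sensitive and -1.43 in resistant cells, and -1.85 in sensitive cells with genes at 0 counts placed at their bound. SPRY4, a Sprouty feedback inhibitor, had 46, 4, 112 and 0 counts, at least 18.9-fold lower in treated sensitive cells against the floor, with an interval end of -3.92 in log2, and -3.32 (-5.41 to -2.02) in resistant cells. IER3, an immediate early gene, had 161, 23, 207 and 5 counts, with ratios of -4.30 (-6.03 to -3.14) and -2.73 (-3.46 to -2.12). The phosphatase gene DUSP6, which removes phosphate from ERK, had 127, 24, 117 and 12 counts, and the cyclin gene CCND1 had 189, 46, 106 and 7 counts, and both were low in both treated libraries. ETV4, an ETS factor, had 29, 7, 65 and 0 counts, at least 11.0-fold lower in treated sensitive cells against the floor, with an interval end of -3.12 in log2. Between treated lines 6 outputs were above 0 and none below, among them CCND1 with 2.17 (1.07 to 3.62) and EGR1, an early growth response factor, with 2.47 (0.92 to 4.998). That count depends on the scaling. With TMM over protein-coding genes or with DESeq2 size factors, 4 were above and 1 below, and with protein-coding counts 6 above and 1 below. Between untreated lines 4 were above and 3 below 0. CCND1, with 1.28 (0.93 to 1.64), and the phosphatase gene DUSP4, with 111 against 73 counts and 1.05 (0.61 to 1.498), were among those higher in resistant cells. SPRY4, with -0.83 (-1.37 to -0.33), and SPRY1, with 0 against 16 counts and at least 3.91-fold lower against the floor, with an interval end of -1.501 in log2, were among those lower. The medians were -0.41 between untreated and 0.73 between treated lines, the latter 0.25 with genes at 0 placed at their bound. These outputs are a known readout of this drug, and the list was chosen with earlier results of these data known.

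Of 9 ERK substrates, 1 was below 0 in each line comparison, 1 was above and 1 below in sensitive cells given the drug, and 1 was below in resistant cells. RPS6KA3, a ribosomal S6 kinase activated by ERK, had 28, 22, 64 and 46 counts and was lower in resistant cells untreated, -0.74 (-1.44 to -0.08), and with the drug, -1.52 (-2.35 to -0.79). Both intervals included 0 when scaled by total gene-table counts, at -0.64 (-1.34 to 0.02) and -0.74 (-1.55 to 0.01). ELK3, an ETS factor phosphorylated by ERK, had 56, 14, 88 and 19 counts and encorafenib ratios of -1.22 (-2.03 to -0.50) in sensitive cells and -1.91 (-2.91 to -1.09) in resistant cells. MKNK2, a kinase that acts on a translation factor, had 15, 18, 14 and 16 counts and a ratio of 1.14 (0.04 to 2.32) in sensitive cells, or 0.57 (-0.54 to 1.74) when scaled by total gene-table counts.

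The medians of the other lists stand beside those of all genes tested, which were -0.03 between untreated lines, 0.07 between treated lines, -0.08 in sensitive cells with the drug and -0.01 in resistant cells with it. In that order RAS activators and adaptors had medians of 0.04, -0.75, 0.60 and 0.05, the first becoming -0.04 with RASGRP3 at its bound. GTPase-activating proteins had line medians of 0.23 and -0.60. RAF regulators and scaffolds had 0.17, 0.34, -0.09 and 0.06, and processing and trafficking genes -0.16, -0.52, 0.05 and -0.25. Other small GTPases had 0.15, 0.29, -0.29 and -0.11, other MAP kinase arms -0.40, -0.36, 0.19 and -0.20, and ERK substrates -0.04, -0.31, -0.02 and -0.29. Scaling by total gene-table counts moved every ratio by 0.10, 0.80, -0.58 and 0.12 in this order, so medians near 0 can change sign with the scaling, while those of the ERK outputs kept theirs.

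**Figure D4:**
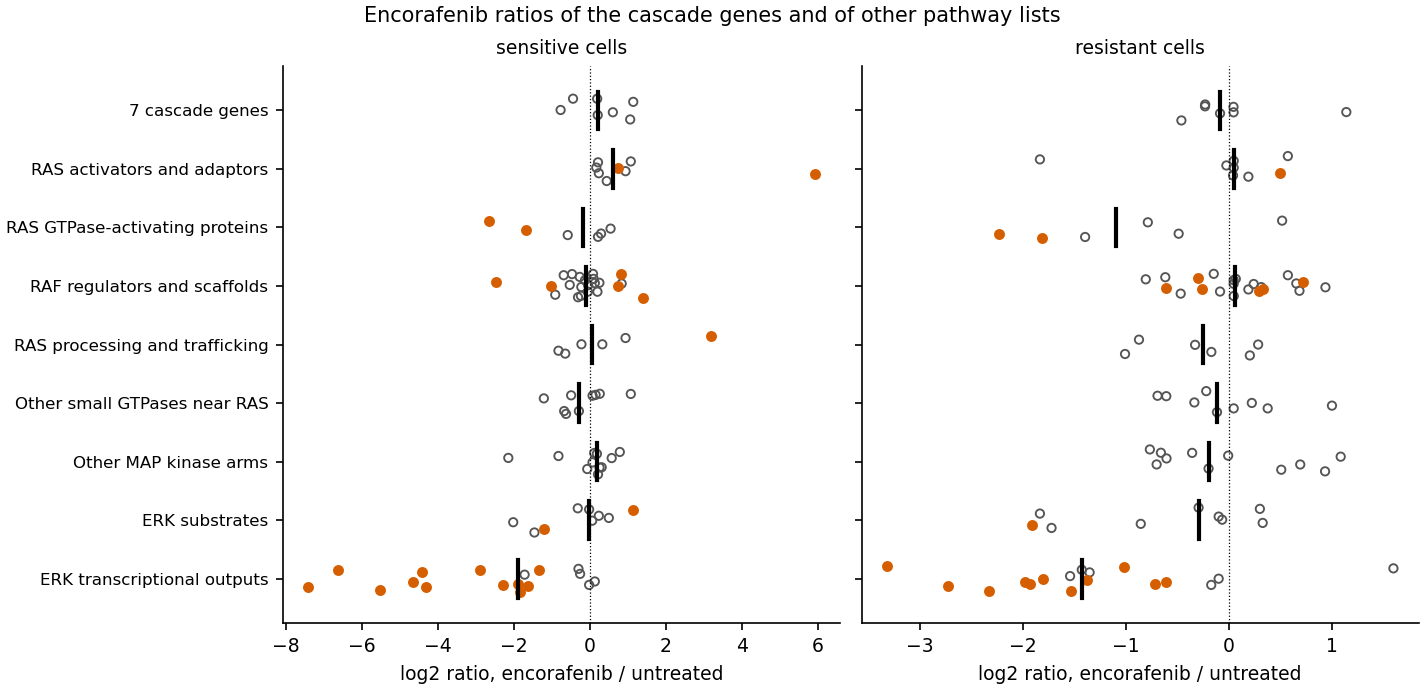
Log2 encorafenib over untreated ratios of each gene of the cascade and of 8 pathway lists in sensitive (left) and resistant (right) cells. Points are genes, filled where the 95% counting interval excludes 0, black bars are list medians, and genes with 0 counts in a library are drawn at fitted ratios that depend on the prior count. The ERK outputs have medians of -1.88 and -1.43, and no cascade gene is filled.

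The same libraries also hold counts of the let-7 microRNAs, which are known to act on RAS transcripts through sites in their 3′ untranslated regions. The sequences below are shown because they share the seed, bases 2 to 8 in capitals, that such a site pairs with. They are the mature sequences from RefSeq (GRCh38.p14), and all 9 family members listed matched an entry.
let-7a-5p: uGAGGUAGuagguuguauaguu
let-7b-5p: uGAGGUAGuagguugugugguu
let-7c-5p: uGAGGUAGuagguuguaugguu
let-7d-5p: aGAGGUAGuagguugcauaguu
let-7e-5p: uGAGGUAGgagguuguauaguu
let-7f-5p: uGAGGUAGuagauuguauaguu
let-7g-5p: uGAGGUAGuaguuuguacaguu
let-7i-5p: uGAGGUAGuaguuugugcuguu
miR-98-5p: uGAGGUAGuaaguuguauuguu
Outside the seed they differ from let-7a-5p at 1 to 4 positions, so reads could be assigned to the wrong member and the family sum is firmer than any member.

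A match to the complement of that seed, CTACCTC on the transcript strand, was searched in 1 annotated 3′ untranslated region per gene. Among the 7 genes NRAS and BRAF each held 1 match, and ARAF, HRAS, MAP2K1, MAP2K2 and MAPK3 held none in the transcript searched. The matches are shown with their surrounding bases, the seed match in capitals.
NRAS, chr1:114707901-114707922 (GRCh38, minus strand): agttctcagaataaCTACCTCc
BRAF, chr7:140723075-140723096 (GRCh38, minus strand): acctctacaaaaaaCTACCTCt
The match lies at base 186 of an NRAS untranslated region of 3625 bases and at base 3412 of a BRAF region of 7167 bases. Of untranslated regions within 20% of the same length, 19.1% hold a match at the length of NRAS and 33.4% at the length of BRAF. Of all 19046 regions searched, 9.51% hold one. A match is a description of the letters and not evidence of a working site.

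The let-7 family took a larger share of microRNA counts in resistant than in sensitive cells. Its sum was 6708 of 20808, 13398 of 59045, 424 of 7041 and 192 of 4395 microRNA counts, or 32.2%, 22.7%, 6.02% and 4.37%. Both resistant libraries were above both sensitive ones, by 5.35-fold (4.85 to 5.92) untreated and 5.19-fold (4.504 to 6.02) with encorafenib. With the drug the family share was 0.726 (0.609 to 0.862) of the untreated share in sensitive cells and 0.704 (0.683 to 0.725) in resistant cells. The most abundant member, let-7a-5p, took 18.5%, 12.0%, 3.35% and 2.23% of the counts. Of the 9 members, 7 were above 0 between untreated lines and 8 between treated lines, and 0 were below in either. Among 190 microRNAs tested, 14.7% were above and 29.5% below untreated, and 21.1% and 31.6% with the drug. In sensitive cells given the drug, 0 members were above and 1 below, beside 8.42% and 4.74%. In resistant cells 3 were above and 5 below, beside 24.2% and 14.2%, and let-7d-5p, let-7g-5p and let-7i-5p were the 3 above, the first and last with ratios of 1.18 (0.78 to 1.60) and 1.08 (0.75 to 1.43).

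These shares depend on the denominator. Per gene-table count the family was 23.1-fold (20.96 to 25.6) higher in resistant than sensitive cells untreated, and in resistant cells given the drug its direction reversed to 2.24-fold (2.18 to 2.31) higher than untreated. The genes with a seed match, NRAS and BRAF, had untreated line ratios of 0.15 (-1.29 to 1.57) and -0.32 (-1.40 to 0.68). The genes without a match had 1.17 (MAP2K2), 0.31 (HRAS), -0.10 (ARAF), -0.18 (MAP2K1) and -0.26 (MAPK3). With intervals this wide, no relation between let-7 shares and the levels of these transcripts could be read from these libraries.

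**Figure D5:**
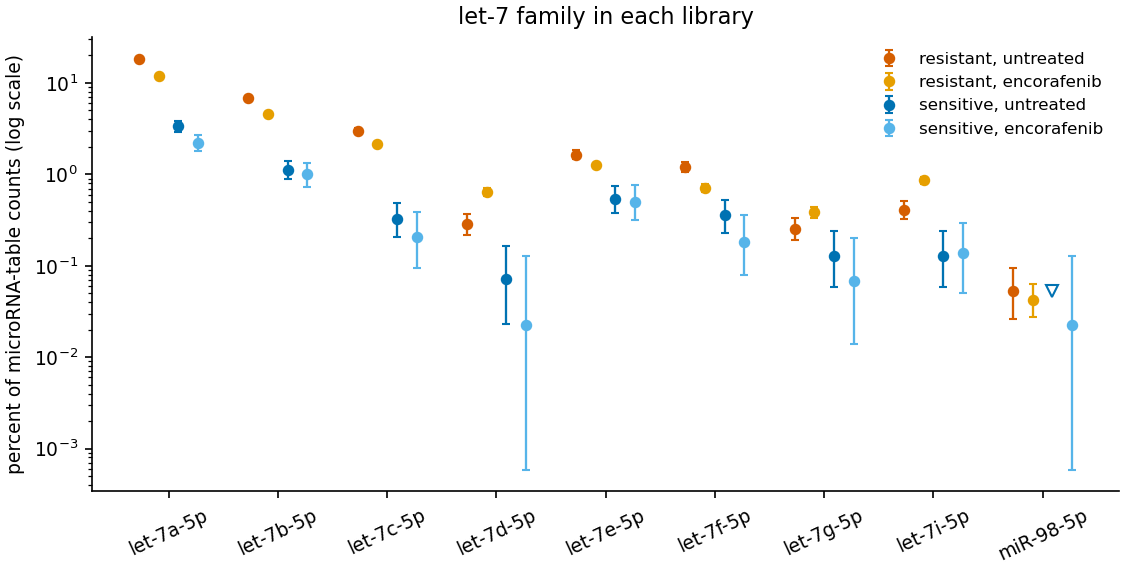
Share of each let-7 family member in the microRNA counts of each library, in percent on a log axis, with 95% Clopper-Pearson intervals. The open triangle marks a count of 0 at the upper end of its interval, and let-7a-5p stands at 18.5% and 12.0% in the resistant and 3.35% and 2.23% in the sensitive libraries.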

How the data were processed

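From 4 libraries, 1 per group, the deposited raw read counts per gene and per mature microRNA were used as they stand, since the file headers name counts and the values are whole numbers. Per the submitters' processing notes hg19 was the build, with aligner and counter not given in the sources used here. Coordinates, transcript lengths and untranslated regions came from the GENCODE GRCh38 annotation matched by symbol.

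Scaling used TMM factors from edgeR 4.0.16 in R 4.3.3 over entries with at least 10 counts in 1 library. Ratios used a prior count of 0.5, spread over libraries in proportion to size, and exact conditional 95% intervals (scipy 1.17.1). Differences of responses, and ratios and odds ratios averaged over both drug states or both lines, have delta-method intervals. The calculation was tested on simulated data that held counting error only. That checks the arithmetic of the intervals and does not cover PCR copies or variation between libraries. Other scalings (total counts, protein-coding counts, protein-coding TMM, DESeq2 1.42.0), a prior count of 2, count filters and the longest transcript were tried as alternatives.

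The members and lists were chosen with earlier results of these data known. All 7 members are named. Of each list, up to 2 genes per comparison and direction with the bound farthest from 0 are named, with DUSP6, ETV4 and genes quoted in a second comparison added after their values were seen. Genes with a profile like that of a member are not reported here.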

Additional observations from a re-analysis of the deposited data

How the results depend on the processing

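No paired analysis was possible because each group was 1 library. Line ratios averaged over the drug states stand in the text, and an additive fit of line and drug was not run. Calls of the 7 genes and of tier sums stayed the same under scaling by protein-coding counts, TMM over protein-coding genes and DESeq2 size factors. The intervals do not use the prior count, and a minimum of 20 counts only drops genes. Neither of these 2 settings could therefore change the interval of a gene, and they are no check of the calls. With a minimum of 20 counts the member median changed sign to 0.03 between untreated and 0.33 between treated lines. Scaling by total gene-table counts shifted every ratio by 0.10, 0.80, -0.58 and 0.12 in the order untreated lines, treated lines, sensitive with drug and resistant with drug. Under it the sum of all 7 genes between untreated lines was 0.43. Between treated lines the member median was 0.64, 1 member (MAP2K2) was above 0, the RAF sum was 1.00, the MEK sum 0.87 and the sum of all 7 genes 0.75, and 386 protein-coding genes were beyond 2-fold higher and 6 lower. In sensitive cells with drug the member median was -0.35, 1 member (BRAF) was below 0, the RAF sum was -1.20, and 90 genes were beyond 2-fold higher and 534 lower. Scalings of the pathway lists were added after the values were seen. Between treated lines, TMM over protein-coding genes and DESeq2 size factors each kept 12 of the 15 calls of listed genes. Under total counts the listed genes with an interval off 0 numbered 35 rather than 15 between treated lines and 37 rather than 24 in sensitive cells with drug, and 3, 2, 4 and 3 calls were lost in the 4 comparisons. Those shifts follow from the scaling itself. Per gene-table count the let-7 family ratio was 4.53, 6.44 and -0.74, and in resistant cells with drug it reversed to 1.17; the cause was not tested. With the longest transcript 17 of 28 levels per length moved.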
